A study of Mus musculus with 12 samples.

Results

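The genes of 5 transcription factors that mark the transit-amplifying progenitors of the hair matrix, Lef1, Msx1, Msx2, Runx2 and Myb, were followed in hair follicle stem cells (HFSCs) of mouse back skin. They were taken by name, first from the hair cycle table, where they are 5 of 21915 genes, and then from the Eed iKO table, where they are 5 of 17885. Their rule uses no measured value, but they were chosen with earlier results of these data known. All 5 passed the filter on low values in both tables. From C57BL/6J mice, CD34+ and EpCAM+ cells with high α6-integrin and no Sca1 were sorted as HFSCs, and RNA was sequenced in 12 libraries, 3 for each of 4 groups. Anagen (P28 to P30) and telogen (P50 to P52) libraries came from wild type mice. Control and Eed iKO libraries came from mice at P70. Eed iKO mice carry K15-CrePGR and Eed fl/fl, so that RU-486, applied to the skin for 7 days from P50, deletes Eed in cells with K15 promoter activity, which are those of the bulge and the hair germ. Control libraries are labelled wildtype, and control mice received ethanol. EED is a core subunit of PRC2, the complex that places H3K27me3. Anagen and telogen libraries differ in the age of the mice as well as in hair cycle stage, and the parts of age and stage cannot be told apart.

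During anagen, HFSCs divide briefly and feed the hair germ and the matrix, whose progenitors divide fast and then become hair shaft or inner root sheath. The 5 genes belong to that step. LEF1 is the factor through which β-catenin switches on Wnt target genes in the matrix and the precortex. MSX1 and MSX2 are homeodomain repressors that act downstream of BMP signals, and mice without Msx2 lose their hair in cycles. RUNX2, best known from bone, is a Runt domain factor that binds DNA with its partner CBFβ. MYB is a DNA binding proto-oncoprotein that keeps progenitors of blood and gut dividing. In stem cells at rest such genes are typical carriers of H3K27me3, which was not measured in these libraries.

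The stretches of DNA before the annotated starts of these genes are shown because they differ in CpG content, a property that PRC2 targets are known for. The sequences come from RefSeq (GRCm38.p6), read 5′ to 3′ on the strand of the gene and over the 250 bases before the annotated start. All 5 genes had an entry. Several motifs were searched on both strands, and capitals mark each match: CTTTGA for LEF/TCF factors, TGTGGT for RUNX, TAATTG for MSX and AACGG for MYB. Of all 32841 windows in the table, 13.8% held the first, 14.0% the second, 7.17% the third and 14.5% the fourth. The windows of Msx1 (chr5:37824586-37824835, minus strand) and Myb (chr10:21160985-21161234, minus strand) held none of the motifs:
Msx1: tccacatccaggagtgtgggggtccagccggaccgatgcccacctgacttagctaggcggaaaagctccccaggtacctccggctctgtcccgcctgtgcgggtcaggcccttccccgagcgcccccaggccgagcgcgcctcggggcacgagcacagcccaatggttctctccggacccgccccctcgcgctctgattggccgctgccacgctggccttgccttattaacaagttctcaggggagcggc
Myb: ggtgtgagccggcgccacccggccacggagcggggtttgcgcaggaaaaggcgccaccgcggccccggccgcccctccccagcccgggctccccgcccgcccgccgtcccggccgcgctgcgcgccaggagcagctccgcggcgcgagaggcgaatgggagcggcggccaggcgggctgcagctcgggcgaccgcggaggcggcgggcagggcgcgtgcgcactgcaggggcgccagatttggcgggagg
The Myb window had 40 CpG and a G+C content of 81.2%, and the Msx1 window had 20 CpG and 68.0%, against medians of 6 CpG and 52.4% over all windows. Msx2 had 16 CpG and 61.6% G+C, while Runx2 had 0 CpG and 44.8%. Lef1 has 4 annotated starts, with 5 to 14 CpG before them. Runx2, Msx1, Msx2 and Myb had 1 window each, so any further starts of these genes were not examined. The 0 CpG of Runx2 thus holds for that window only. For Msx2 and Runx2 only the sites are printed, as the GENCODE annotation (vM21) places exon bases in these windows. The Msx2 site (chr13:53472928-53472956, minus strand) holds a MYB match, and the Runx2 site (chr17:44814702-44814730, minus strand) holds a LEF/TCF and a RUNX match:
Msx2: taatttatttcaAACGGggcgggggaagg
Runx2: CTTTGAgtactgtgaggtcacaaACCACA
The Lef1 window before its last start (chr3:131156044-131156293, plus strand) holds 2 LEF/TCF matches, and the other 3 Lef1 windows hold none of the motifs:
Lef1: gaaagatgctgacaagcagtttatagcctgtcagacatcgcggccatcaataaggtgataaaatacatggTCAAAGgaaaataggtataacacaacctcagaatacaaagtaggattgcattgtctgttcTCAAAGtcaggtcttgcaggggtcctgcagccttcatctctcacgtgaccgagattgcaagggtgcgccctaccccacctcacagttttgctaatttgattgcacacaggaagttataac
A match is a description of these letters and not evidence of binding.

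In the hair cycle, the members did not move as 1 group. Msx2 fell in anagen by 1.60 on the log2 scale, Msx1 stood 2.00 log2 units higher in anagen without passing the adjusted test, and Lef1, Runx2 and Myb spread so widely between libraries that anagen and telogen overlapped. Values are normalized counts as the authors gave them. In this table only 41.2% to 51.1% of the values in a library came out as whole reads. They are thus not whole counts over a single factor per library, and how they were scaled was not tested. The limma fit was run on log2(normalized count + 1), where changes of low genes come out too small. A gene was called at a Benjamini-Hochberg adjusted p under 0.05 over the 13457 genes tested. Of the 5 members, 1 was called, and 11.6% of all genes tested were. Called genes were 7.22% of all genes on the side of anagen and 4.35% on the side of telogen. The libraries of anagen and telogen did not overlap for 2 of the 5 members and for 33.3% of all genes tested. The median log2 fold change was -0.43 over the members and 0.01 over all genes tested.

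**Figure D1:**
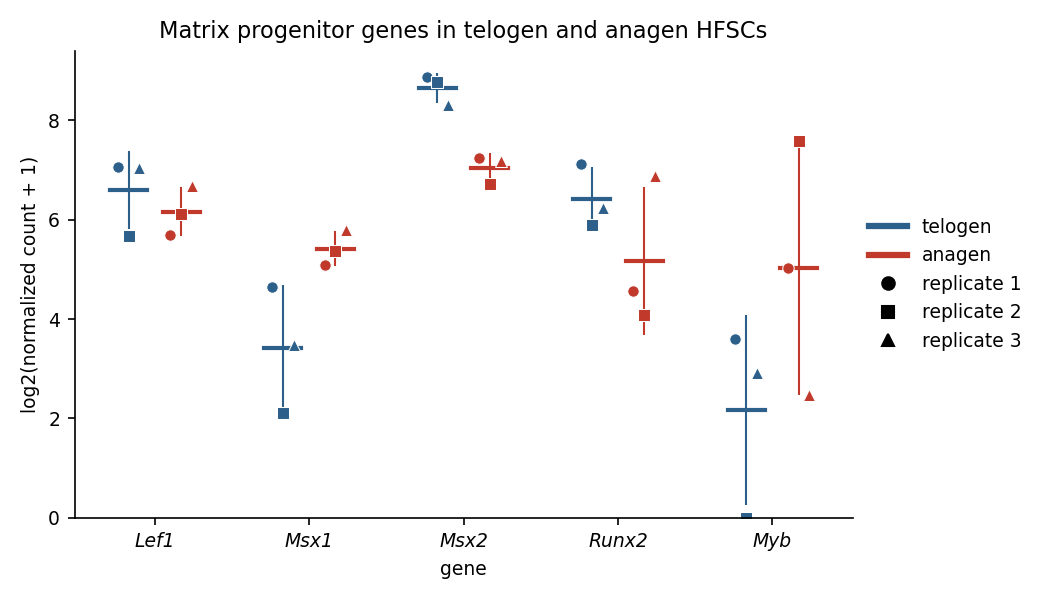
Points show log2(normalized count + 1) of each gene in each of 3 telogen (blue) and 3 anagen (red) libraries, with shapes for replicate numbers, horizontal lines at the group means and vertical lines of ± 1 SD. The Msx2 libraries of telogen all lie above those of anagen, the Msx1 libraries lie the other way round, and the groups overlap for Lef1, Runx2 and Myb.

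Msx2 (ENSMUSG00000021469.9, GRCm38 chromosome 13 from 53466884 to 53473074, minus strand) was the most abundant member. Its normalized counts were 469, 434 and 315 in telogen replicates 1, 2 and 3 and 151, 104 and 144 in anagen replicates 1, 2 and 3. Every telogen library lay well above every anagen library. The means were 406 ± 80.8 in telogen and 133 ± 25.5 in anagen (SD, n = 3 each), a 3.04-fold difference with a log2 fold change of -1.60 (SE 0.31, 95% interval -2.28 to -0.92, limma adjusted p = 0.00806). The call held in every alternative fit, and with each library left out in turn the log2 fold change lay between -1.77 and -1.44. In bulk RNA, fewer cells that express a gene and less RNA per cell cannot be told apart.

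Msx1 (ENSMUSG00000048450.10, chromosome 5 from 37820485 to 37824583, minus strand), the paralog of Msx2, had normalized counts of 24.2, 3.33 and 10.1 in telogen replicates 1 to 3 and 33.1, 40.4 and 54.3 in anagen replicates 1 to 3. All anagen libraries were above all telogen libraries, and telogen replicate 1 came closest to them. The means were 12.5 ± 10.6 and 42.6 ± 10.7 (SD, n = 3 each). The log2 fold change of anagen over telogen was 2.00 (SE 0.72, 95% interval 0.41 to 3.60), with an unadjusted p of 0.0181 and an adjusted p of 0.10 from limma, so the gene was not called. Leaving out telogen replicate 1 brought it to 2.62 with an adjusted p of 0.0424, and leaving out telogen replicate 2 lowered it to 1.35 with an adjusted p of 0.190.

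The ratio of Msx1 to Msx2 within a library is not changed by a factor that scales the whole library, apart from the added count of 1. Scaling that differs between genes would change it. This ratio was chosen with the values of both genes known. On the log2 scale it was -4.22, -6.65 and -4.83 in telogen replicates 1 to 3 and -2.16, -1.34 and -1.39 in anagen replicates 1 to 3. Msx1 was the lower of the pair in every library, and every anagen library lay above every telogen library. The means were -5.24 ± 1.26 and -1.63 ± 0.46 (SD, n = 3 each), a difference of 3.61. Since the libraries of both genes were already known to separate the groups in opposite directions, the ratio had to separate them too, and no test of it is given.

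**Figure D2:**
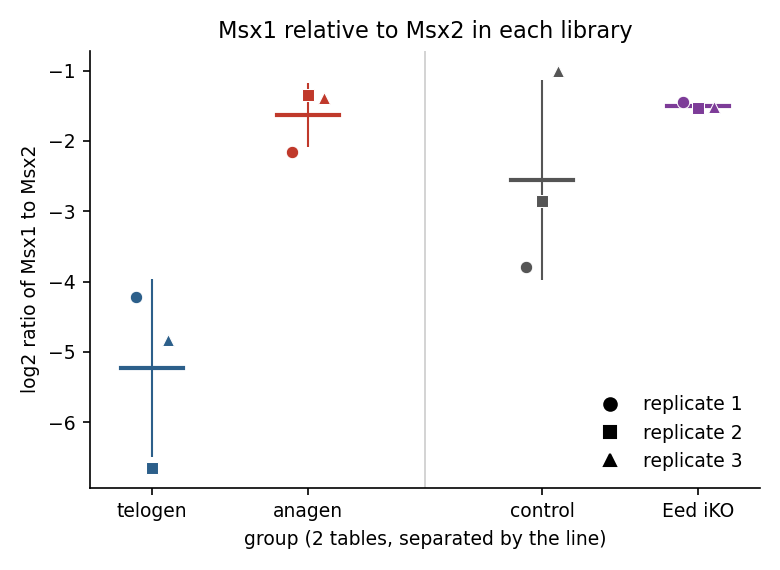
The log2 ratio of Msx1 to Msx2, from normalized counts + 1, is shown for each library of the hair cycle table (left of the line) and the Eed iKO table (right), with lines at the mean ± 1 SD of 3 libraries. The anagen libraries lie between -2.16 and -1.34 and the telogen libraries between -6.65 and -4.22, while the control libraries spread from -3.79 to -1.0 around the Eed iKO libraries.

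Lef1 (ENSMUSG00000027985.14, chromosome 3 from 131110471 to 131224356, plus strand) was present in every library. Its normalized counts were 133, 50.3 and 130.5 in telogen replicates 1 to 3 and 50.8, 68.4 and 101 in anagen replicates 1 to 3. The lowest value of all belonged to a telogen library, and the groups overlapped. Anagen over telogen gave a log2 fold change of -0.43 (SE 0.50, 95% interval -1.53 to 0.66, limma adjusted p = 0.616). Of the exon bases of Lef1, 13.7% lie opposite the antisense gene Gm43352, whose reads cannot be told apart from it without strand.

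Runx2 (ENSMUSG00000039153.16, chromosome 17 from 44495987 to 44814797, minus strand) split the anagen libraries. Its normalized counts were 138, 58.5 and 74.6 in telogen replicates 1 to 3 and 22.7, 16.0 and 116 in anagen replicates 1 to 3. Anagen replicates 1 and 2 lay below every telogen library, and anagen replicate 3 lay within the telogen range. Between the groups the log2 fold change was -1.24 (SE 0.70, 95% interval -2.79 to 0.31, limma adjusted p = 0.282). With a library left out it ranged from -2.09 without anagen replicate 3 (adjusted p 0.0755) to -0.70 without anagen replicate 2 (adjusted p 0.624). The antisense gene Runx2os1 covers 5.87% of the exon bases of Runx2.

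Myb (ENSMUSG00000019982.15, chromosome 10 from 21124935 to 21160984, minus strand) varied most between libraries. Its normalized counts were 11.1, 0 and 6.54 in telogen replicates 1 to 3 and 31.8, 192 and 4.52 in anagen replicates 1 to 3. A single anagen library, replicate 2, held most of the signal, and anagen replicate 3 lay below telogen replicates 1 and 3. The log2 fold change was 2.86 (SE 1.29, 95% interval 0.04 to 5.69), with an unadjusted p of 0.0475 and a limma adjusted p of 0.178. It was 1.58 without anagen replicate 2, 1.78 without telogen replicate 2 and 4.15 without anagen replicate 3, and 3.97 with a pseudocount of 0.1. The antisense gene Gm26577 lies opposite 6.26% of the exon bases of Myb.

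By the thresholds of the methods, a log2 fold change beyond 2 with an unadjusted p under 0.05, Msx1 and Myb passed, both higher in anagen, where Msx1 lay at the fold threshold itself. These thresholds were passed by 5.10% of all genes tested. Msx2, the member with the smallest p, did not reach the fold.

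Per kilobase of exon, the order of the member means below Msx2 differed between the stages, but the libraries of these members overlapped widely. In telogen the mean levels were 124 normalized counts per kilobase for Msx2, 11.9 for Lef1, 10.2 for Runx2, 4.05 for Msx1 and 0.657 for Myb. In anagen they were 40.6 for Msx2, 13.8 for Msx1, 8.53 for Myb, 8.37 for Lef1 and 5.84 for Runx2. Msx2 stood first in both stages, with no library of another member reaching its range. In telogen the libraries of Lef1, Runx2 and Msx1 overlapped one another, as did those of Msx1 and Myb. In anagen the libraries of Msx1, Myb, Lef1 and Runx2 all overlapped one another, so a change of order among them is not established. Among the 17220 genes ranked per kilobase in each library, Msx2 had a median percentile of 79.0 in telogen and 59.5 in anagen. The percentile of Msx1 was 26.7 in telogen and 41.8 in anagen, and that of Myb 16.3 and 29.1. All members but Msx2 thus lay in the lower part of the ranking, with the highest single library at the 48.0 percentile.

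Over the 6 libraries of the hair cycle table, the log2 levels of Msx1 and Msx2 had a Pearson correlation of -0.74, and those of Lef1 and Runx2 0.70. Msx1 and Myb gave 0.69, Msx2 and Myb -0.70, Myb and Runx2 -0.67, and Msx2 and Runx2 0.64. The other pairs lay between -0.16 and 0.30. In the Eed iKO table the same pairs, in this order, gave -0.38, -0.46, 0.50, -0.80, -0.42 and 0.53, so that Lef1 and Runx2 changed sign. These values are descriptions, as the libraries share their 2 groups. Genes that followed a member most closely in the hair cycle were found among all genes tested there. For Msx2 they were Bach1 (r = 0.9982 over 6 libraries), Hscb (0.9954) and H2-D1 (0.9924). For Msx1 they were Uba3 (0.9937), Cdkl3 (0.9910) and Aldh18a1 (0.9902). Lef1 was followed by Dip2a (0.9991), Spg7 (0.9892) and Vmn1r29 (0.9890), Runx2 by Yipf2 (0.9888), 2010300C02Rik (0.9853) and Zfp2 (0.9836), and Myb by Otud4 (0.9948), Slf1 (0.9915) and Peak1 (0.9890). With 6 libraries such likeness was not rare, and an r above 0.9 was reached by 484 genes for Msx2, 210 for Msx1, 111 for Runx2, 107 for Lef1 and 80 for Myb.

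Among the relatives of the members, Tcf7 passed the test in the hair cycle. Tcf7 encodes TCF1, which binds the same DNA motif as LEF1 and also works with β-catenin. Its normalized counts were 70.2, 45.3 and 83.1 in telogen replicates 1 to 3 and 245, 317 and 182 in anagen replicates 1 to 3, with no overlap. Tcf7 rose by 1.90 on the log2 scale (SE 0.39, limma adjusted p = 0.0111), while Lef1 did not pass the test. Without anagen replicate 1 or 2 the adjusted p of Tcf7 was 0.0606 or 0.0754, with log2 fold changes of 1.89 and 1.70, so its call rested on these libraries. Tcf7l1 encodes TCF3, the repressor of this family that is typical of bulge HFSCs at rest. It averaged 215 ± 52.0 in telogen and 236 ± 64.7 in anagen (SD, n = 3 each), with a log2 fold change of 0.12 (SE 0.34, limma adjusted p = 0.843). Tcf7l2, which encodes TCF4, gave 0.18 (SE 0.24, adjusted p = 0.676).

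Runx1, the Runt domain gene that promotes HFSC activation, had a mean level of 296 normalized counts per kilobase in telogen and 222 in anagen, far above Runx2. Its normalized counts were 3765, 3563 and 3354 in telogen replicates 1 to 3 and 2493, 2797 and 2735 in anagen replicates 1 to 3. The groups did not overlap, but the log2 fold change of -0.41 (SE 0.17) had an adjusted p of 0.144 from limma. Cbfb, which encodes the partner of all RUNX factors, had a log2 fold change of 0.58 (SE 0.20, adjusted p = 0.0844). Mybl1, a Myb paralog, stood at 94.7 ± 30.9 in telogen and 236 ± 98.6 in anagen (SD, n = 3 each), a log2 fold change of 1.28 (SE 0.43, adjusted p = 0.0823). Mybl2, the Myb paralog of dividing cells, gave 0.46 (SE 0.51, adjusted p = 0.601). Msx3 and Runx3 stayed at 12.6 or below in every library and were not tested. Thus 1 of the 7 relatives tested was called, beside 11.6% of all genes.

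**Figure D3:**
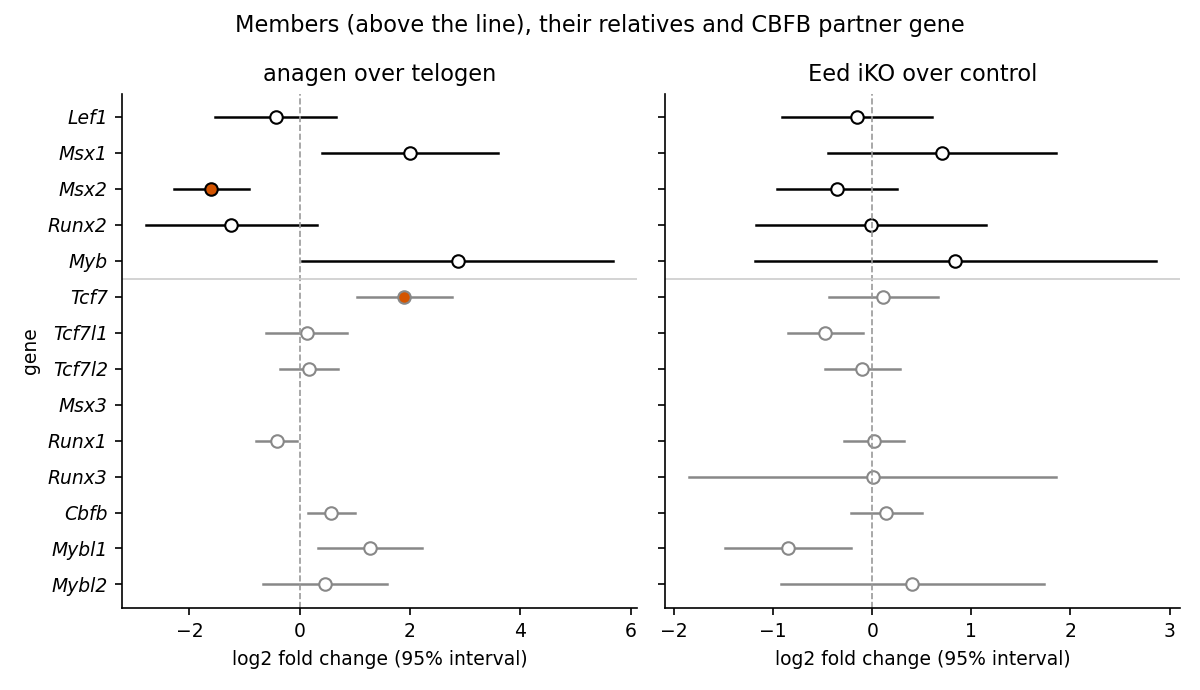
Circles give log2 fold changes and lines their 95% intervals from limma, for anagen over telogen (left) and Eed iKO over control (right), each with 3 libraries a group. Filled circles passed an adjusted p under 0.05. Members stand above the line in black and relatives below it in grey. Msx2 and Tcf7 are filled on the left, no gene is filled on the right, and genes without a circle were not tested.

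Other genes of the matrix were called only in part, and none of them was called lower in anagen. Among 3 more matrix genes, E2f2, an E2F factor of proliferating cells, rose from 44.0 ± 24.7 to 222 ± 50.1 (SD, n = 3 each), a log2 fold change of 2.43 (SE 0.47, limma adjusted p = 0.00827). Shh, the ligand that matrix cells secrete, had 17.3, 4.47 and 14.6 in anagen replicates 1 to 3 and 23.3, 0 and 11.4 in telogen replicates 1 to 3, so that the groups overlapped. Bmp4 averaged 14.3 ± 8.90 in telogen and 14.6 ± 6.94 in anagen (SD, n = 3 each). Without anagen replicate 1 E2f2 gave 2.26 with an adjusted p of 0.0584. Shh and Bmp4 had adjusted p-values of 0.696 and 0.948.

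Of 15 genes for signals that reach these factors, 13 were tested and 3 rose in anagen, with none lower. They were Ptch1 (log2 fold change 2.07, adjusted p = 1.32e-04) and Gli1 (1.49, adjusted p = 0.0387), both targets of hedgehog signals, and Ctnnb1 (0.72, adjusted p = 0.0178), the gene of β-catenin. Without anagen replicate 1 the adjusted p was 0.181 for Gli1 (log2 fold change 1.28) and 0.0977 for Ctnnb1 (0.67), and each also lost its call without anagen replicate 2, while Gli1 did so without telogen replicate 2 or 3 and Ctnnb1 without anagen replicate 3. The median of the list was 0.46, against 0.01 over all genes. Of all genes tested, 7.22% were called higher in anagen, and with so few genes no excess is claimed for this list or the next. Among 12 further matrix and lineage factors, 11 were tested and 2 rose. They were Dlx2, a homeobox gene (1.66, adjusted p = 0.0212), and Trps1, a GATA-type repressor (0.85, adjusted p = 0.0132). Dlx2 lost its call without any 1 anagen library (adjusted p from 0.0670 to 0.102), with log2 fold changes of 1.57 to 1.72, and Trps1 lost it without anagen replicate 2 or 3 (0.0837 and 0.0675), with 0.80 and 0.81. Without the intensity trend the adjusted p was 0.0719 for Gli1, 0.0984 for Ctnnb1, 0.0527 for Dlx2 and 0.0777 for Trps1, and Gli1 had 0.0509 without the filter on low values. The median of that list was 0.54.

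Of 21 genes of the hair shaft and inner root sheath, which are keratins and Tchh, 19 were measured and 7 passed the filter. Those that rose in anagen were Krt28 (log2 fold change 4.64, limma adjusted p = 0.00503), Krt27 (log2 fold change 4.09, adjusted p = 0.0140), Krt25 (log2 fold change 3.25, adjusted p = 0.0186) and Tchh (log2 fold change 3.07, adjusted p = 0.00271), all genes of the inner root sheath. The median of the 7 genes tested was 3.07, and 7.22% of all genes tested were called higher in anagen. Krt28, Krt27 and Krt25 passed the filter only through their anagen libraries, so their rise and this median were partly fixed by it. Without anagen replicate 1 the adjusted p was 0.114 for Krt27 and 0.123 for Krt25, and without anagen replicate 2 it was 0.0595 and 0.0917, with log2 fold changes of 3.52 and 2.61 and of 4.24 and 3.09. Krt28 was low, with 36.2, 28.5 and 44.8 normalized counts in anagen replicates 1 to 3. In telogen replicates 1 to 3 it had 0, 2.22 and 0. Tchh stood higher, at 634 ± 325 in anagen and 73.5 ± 39.9 in telogen (SD, n = 3 each). All 14 proliferation genes rose, with a median log2 fold change of 4.12. Within the anagen group, all 14 were lowest in replicate 3, the anagen library with the highest Runx2 and the lowest Myb. A relation between them was not tested. Mki67, the gene of the Ki67 antigen, went from 376 ± 86.4 to 12777 ± 2281 (SD, n = 3 each; limma adjusted p = 1.95e-06). Every anagen library thus held far more Mki67 than any telogen library, while 1 of the 5 members was called and that one was lower.

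**Figure D4:**
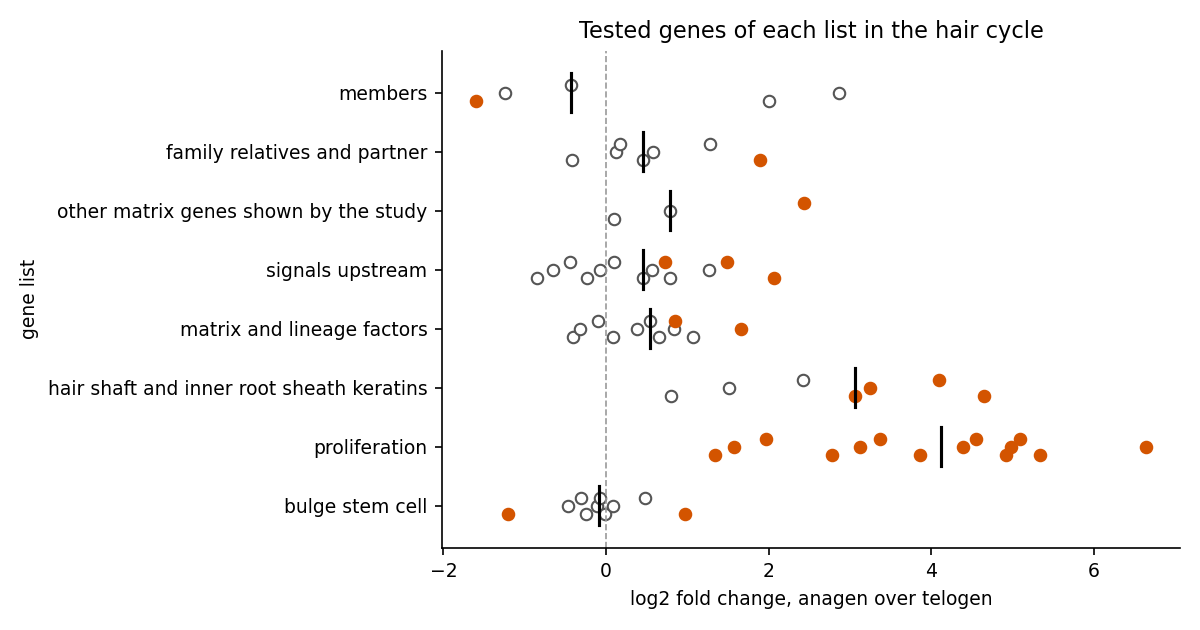
Each circle is a tested gene at its log2 fold change of anagen over telogen, grouped by gene list, with filled circles for an adjusted p under 0.05 from limma and a vertical bar at the median of the list. All 14 proliferation genes are filled and lie to the right, while the members reach from -1.60 to 2.86 with 1 filled circle, Msx2.

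The sorted cells carried bulge markers at high levels. Of 10 bulge genes tested, Cd34 fell by 1.21 on the log2 scale in anagen (limma adjusted p = 0.00382), Itga6 rose by 0.97 (adjusted p = 0.0144), and 8 were not called. Of all genes tested, 11.6% were called. The call of Itga6 was lost without anagen replicate 1 or 2 (adjusted p 0.0726 and 0.0671, log2 fold changes 0.94 and 0.95) and without the intensity trend (0.0923). Markers of other cells moved in part with the stage. The summed level of 10 dermal papilla genes was 234 to 485 in telogen and 577 to 976 in anagen. Hhip had the largest mean of them, 279 ± 171 in telogen and 670 ± 262 in anagen (SD, n = 3 each). Its groups overlapped, and it was not called (limma adjusted p = 0.102). Vcan was called higher among 4 tested, but it passed the filter on low values only through its anagen libraries. Sox2 and Sox18 were at 0 in all libraries. Of 5 fibroblast genes tested, Col1a1 and Dcn rose, with sums over 7 genes of 354 to 797 in telogen and 606 to 700.3 in anagen. A positive log2 fold change was found for 3 of the 5. Col1a2 and Pdgfra had negative values of -0.997 and -1.02 and were not called (limma adjusted p = 0.108 and 0.586). Every anagen library of Col1a2 lay below every telogen library, while the groups overlapped for Pdgfra. The 7 melanocyte genes summed to 2909 to 3285 in telogen and 1411 to 1495 in anagen. Mitf made up most of that sum and fell from 2963 ± 162 to 831 ± 156 (SD, n = 3 each), while Dct rose from 96.2 ± 36.2 to 543 ± 161. Of the 5 melanocyte genes tested, 4 had a positive log2 fold change, with a list median of 1.34, and Tyrp1, at 6.66 ± 3.26 and 26.7 ± 7.95, was not called (adjusted p = 0.0994). Of 6 interfollicular epidermis genes tested, Flg rose, with sums of 7668 to 15290 in telogen and 4501 to 13240 in anagen. The median log2 fold change of the list was 0, with 3 of 6 positive. Krt1, Krt10 and Ly6a had negative values of -0.46, -0.40 and -0.68 and were not called (limma adjusted p = 0.540, 0.517 and 0.593). None of 4 immune genes and 2 endothelial genes tested was called by limma, and 0 of them had an unadjusted p under 0.05, which 27.3% of all genes tested had. The immune sums were 100.4 to 119 in telogen and 93.4 to 120.5 in anagen, the endothelial sums 80.0 to 157 and 76.5 to 119, and Cdh5 was at 0. Without anagen replicate 3 the adjusted p was 0.0572 for Vcan (log2 fold change 4.24 against 4.59) and 0.0554 for Col1a1 (1.76 against 2.06), and without anagen replicate 1 or 2 it was 0.0973 or 0.0671 for Dcn (3.77 or 4.01 against 4.05). The part of these cells in the values of Lef1, Msx1, Msx2, Runx2 and Myb was not tested.

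The Eed iKO table asks whether loss of PRC2 in HFSCs at rest releases the matrix genes. None of the 5 members was called, and their groups overlapped throughout. Control libraries spread more widely than Eed iKO libraries for Msx1, Msx2 and Runx2. The targeted gene itself did not check the labels: Eed (ENSMUSG00000030619.9, chromosome 7 from 89954654 to 89980983, minus strand) had 1084, 1249 and 950.2 normalized counts in control replicates 1 to 3 and 933, 1361 and 1002 in the libraries labelled Eed iKO, a log2 fold change of -0.01 (SE 0.22, limma adjusted p = 0.993). These values cover the whole gene, so that a deleted exon cannot be read from them. Every direction below rests on the labels. Of 15008 genes tested, 0.0267% were called at an adjusted p under 0.05, and 1.75% passed the thresholds of the methods, here a log2 fold change beyond 1.5 and an unadjusted p under 0.05. The groups of libraries did not overlap for 20.2% of all genes tested and for 0 of the members. No member had an unadjusted p under 0.05, and none was called by edgeR or DESeq2 on the recovered reads, where DESeq2 gave no adjusted p for Myb. The median log2 fold change was -0.02 over the members and 0 over all genes tested.

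The levels of Msx1 were 129, 115 and 499 normalized counts in control replicates 1 to 3 and 343, 299 and 312 in Eed iKO replicates 1 to 3. The Eed iKO libraries lay close together, above control replicates 1 and 2 and below control replicate 3. For Msx1 this gave a log2 fold change of 0.70 (SE 0.52, 95% interval -0.45 to 1.85, limma adjusted p = 0.562). It was 1.38 without control replicate 3 (adjusted p 0.178), 0.41 without control replicate 1, 0.32 without control replicate 2, and 0.37 by edgeR and 0.36 by DESeq2 on the recovered reads. Msx2 had 1799, 838 and 1001 in control replicates 1 to 3 and 932, 862 and 899.7 in Eed iKO replicates 1 to 3. Control replicate 1 stood apart, and the other libraries lay close together. The log2 fold change of Msx2 was -0.35 (SE 0.27, 95% interval -0.96 to 0.25, limma adjusted p = 0.582), and it was -0.03 without control replicate 1.

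The log2 ratio of Msx1 to Msx2 was -3.79, -2.86 and -1.0 in control replicates 1 to 3 and -1.44, -1.53 and -1.52 in Eed iKO replicates 1 to 3. The difference of 1.05 had an exact permutation p of 0.4 (two-sided, n = 3 each). The smallest p this test can give here is 0.1, so it could not pass 0.05, and no conclusion is drawn from it. Lef1, the matrix marker, had 389.9, 648 and 677 normalized counts in control replicates 1 to 3 and 435, 768 and 369.8 in Eed iKO replicates 1 to 3. Both the highest and the lowest library of Lef1 were Eed iKO libraries. Its log2 fold change was -0.16 (SE 0.34, 95% interval -0.91 to 0.60, limma adjusted p = 0.871).

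Runx2 had 375, 224 and 83.4 normalized counts in control replicates 1 to 3 and 224, 187 and 162 in Eed iKO replicates 1 to 3. The control libraries enclosed the Eed iKO libraries. For Runx2 the log2 fold change was -0.02 (SE 0.53, 95% interval -1.18 to 1.14, limma adjusted p = 0.992), and it moved between -0.61 and 0.47 when control replicate 3 or 1 was left out. Myb had 3.47, 13.0 and 13.6 in control replicates 1 to 3 and 22.6, 23.9 and 7.91 in Eed iKO replicates 1 to 3. These levels rest on 5, 12 and 15 recovered reads in control and 21, 18 and 8 in Eed iKO, out of 33269583 to 57063586 reads a library. The log2 fold change of Myb was 0.84 (SE 0.92, 95% interval -1.19 to 2.87, limma adjusted p = 0.722). At these intervals, differences of moderate size could go undetected for all 5 members. Dlx3, with a log2 fold change of -1.04 and a smaller SE of 0.20, was not called either (limma adjusted p = 0.0899). A p that misses the threshold does not show equal levels.

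**Figure D5:**
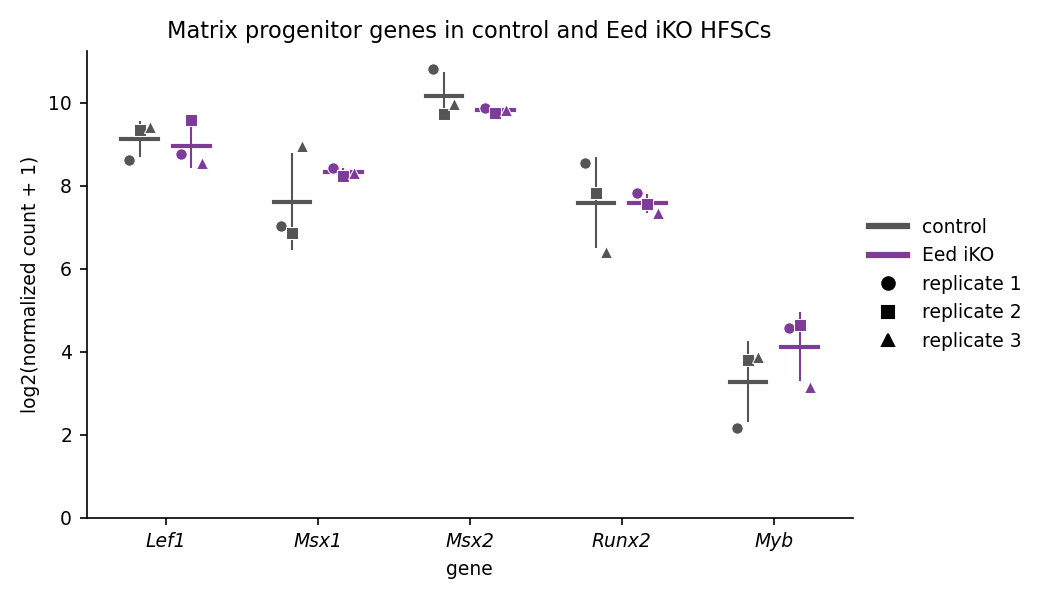
Points show log2(normalized count + 1) of each gene in 3 control (grey) and 3 Eed iKO (purple) libraries, with shapes for replicate numbers, horizontal lines at the means and vertical lines of ± 1 SD. The groups overlap for all 5 genes, with the Msx1 value of control replicate 3 above, and the Msx2 value of control replicate 1 far above, those of the Eed iKO libraries.

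Among relatives in the Eed iKO table, 8 were tested and none was called by limma, edgeR or DESeq2, while 2 had an unadjusted p under 0.05. Tcf7l1 was 2655, 2693 and 2698 in control replicates 1 to 3 and 2219, 2062 and 1570.0 in Eed iKO replicates 1 to 3 (log2 fold change -0.47, SE 0.17, limma adjusted p = 0.231). Mybl1 was 409, 464 and 439.8 in control and 266, 239 and 222 in Eed iKO (log2 fold change -0.85, SE 0.29, limma adjusted p = 0.207). For both genes every Eed iKO library lay below every control library. E2f2, Shh and Bmp4 were not called either, and 0 of them had an unadjusted p under 0.05. Of 14 genes tested for signals, 12 matrix and lineage factors, 9 hair shaft and inner root sheath genes and 14 proliferation genes, limma and edgeR called none. Unadjusted p-values under 0.05 were found for 2, 2, 2 and 5 of them, beside 14.7% of all genes tested. DESeq2, which gave no adjusted p for some low genes, called Id1, Rrm2, E2f1 and Cdk1 higher and Dlx3 lower in Eed iKO. The median of the proliferation list was 0.95, and 11 of its 14 genes were lowest, within the Eed iKO group, in replicate 3. Mki67 had 6125, 6301 and 609 in Eed iKO replicates 1 to 3 and 639, 2543 and 928 in control replicates 1 to 3. Rrm2 had 2045, 2178 and 2287 in Eed iKO and 1127, 1426 and 1415 in control, with replicate 3 like the others. No bulge, dermal papilla, fibroblast, immune, endothelial, melanocyte or epidermal marker was called by limma, edgeR or DESeq2, with 2 of 10, 1 of 3, 1 of 5, 1 of 4, 0 of 3, 1 of 6 and 1 of 6 at an unadjusted p under 0.05.

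Per kilobase, the order of the members in control libraries was Msx2 with 369.9, Msx1 with 79.9, Lef1 with 65.0, Runx2 with 25.7 and Myb with 1.12 normalized counts. In Eed iKO libraries it was 274, 103, 59.7, 21.6 and 2.03. The libraries of Msx1 and Lef1 overlapped in control and not in Eed iKO, and Myb lay below every other member in all 6 libraries. The tables were normalized apart, so levels are not compared across them beyond ranks. The median percentile of Msx2 among the 17220 genes was 70.8 in control and 68.1 in Eed iKO, that of Msx1 39.0 and 48.8, and that of Myb 13.0 and 16.0.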

How the data were processed

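RNA-seq of sorted HFSCs was analysed in 12 libraries, grouped by their labels. The authors made cDNA from total RNA, aligned reads to mouse transcripts of Gencode vM20 with Kallisto (0.42.5 per the labels, build mm10) and compared groups with DESeq2 (given as 3.11). The signal that the authors deposited for each gene is a normalized count. In the Eed iKO table it is a whole count over a single factor per library, which does not hold for the hair cycle table. Columns of the authors' own fold changes and p-values were not used. The 2 tables were normalized separately and tested separately.

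Normalized counts were tested with limma (3.58.1, R 4.3.3) with an intensity trend on log2(value + 1), after filterByExpr of edgeR (4.0.16) with a count minimum of 10. This left 13457 genes in the hair cycle table and 15008 in the Eed iKO table, and p-values were adjusted over all of them by the method of Benjamini and Hochberg. Library sums were 11370984 to 13186648 in the hair cycle table, where depth is unknown because 41.2% to 51.1% of values came out as whole reads within 0.1 read. Of the values in the Eed iKO table, 100% did, which gave 33269583 to 57063586 reads a library for edgeR and DESeq2 (1.42.0) as alternatives. The methods name the replicates of the Eed iKO table biological, from more than 1 litter, and the hair cycle libraries as coming from several animals of each age. Which animals gave which library is not given in the sources used here, and p-values measure the spread between libraries.

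The members and gene lists were chosen with earlier results of these data known. Named genes are the members, Eed, the relatives of the members, the 3 genes most alike to each member, and up to 6 called genes of a list with the largest change. Genes named beyond that rule (Id1, Dlx3 and proliferation genes of the Eed iKO table, and Tyrp1, Col1a2, Pdgfra, Hhip, Krt1, Krt10 and Ly6a of the hair cycle table) were chosen after their values were seen. Coordinates and exon lengths came from GENCODE vM21 (GRCm38), which matched 21173 and 17241 identifiers with version, and promoters from RefSeq. Scripts were tested on simulated data. Alternatives were a pseudocount of 0.1, no filter, leaving out each library, the replicate number as a block, TMM scaling, no trend and, for the Eed iKO table, count tests. No protein sequence was used here.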

Additional observations from a re-analysis of the deposited data

How the results depend on the processing

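The call of Msx2 in the hair cycle was kept in every alternative fit, though Msx2 missed the fold threshold of the methods. No member was called in the Eed iKO table by any alternative. Msx1 in the hair cycle ranged from 1.35 to 2.62 with a library left out and passed only without telogen replicate 1, which moved the number of members called from 1 to 2. In the Eed iKO table Lef1 ranged from -0.47 to 0.059 and Runx2 from -0.61 to 0.47 with a library left out, so that neither had a stable sign. In the hair cycle, 1556 genes were called, 842 without the intensity trend, 686 by the thresholds of the methods and 590 to 1534 with a library left out, the counts falling to 590, 675 and 826 without anagen replicate 1, 2 or 3. Of the genes in the Eed iKO table, 4 were called, 2 without the trend, 263 by the thresholds of the methods, 673 by DESeq2 and 1 to 188 with a library left out, the count of 188 coming without Eed iKO replicate 3. With the replicate number as a block, 1224 and 424 genes were called in the hair cycle and Eed iKO tables. Deviations of same-numbered libraries correlated at -0.035, -0.071 and -0.029 in the hair cycle table and at 0.039, 0.068 and 0.193 in the Eed iKO table, under the limit of 0.1 in at least 2 pairs of each table, so the numbers were not taken to pair the libraries. The block changed no call of a member, but Ctnnb1 lost its call in the hair cycle (adjusted p = 0.0548), and Id1, Rrm2, E2f1 and Top2a were called higher and Dlx3 lower in Eed iKO. Of the 26 called genes followed in the hair cycle, 13 kept the call in every alternative fit and 13 lost it in some, among them Tcf7 and E2f2, and none changed sign. Genes that were not called and changed sign with a library left out were Tcf7l1 (-0.088 to 0.33) and Tcf7l2 (-0.086 to 0.38) in the hair cycle and Eed (-0.17 to 0.10) in the Eed iKO table, where edgeR gave 0.0049 and DESeq2 0.0025 for Eed. The cause of these shifts was not tested, beyond the smaller number of libraries. In the Eed iKO table counting error alone limits Myb, with 5 to 21 reads a library.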
